A study of Mus musculus with 16 samples.

Results

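The peaks of acetylated lysine 27 of histone H3 (H3K27Ac) around 3 bile acid transporter genes, Slc10a1, Abcb11 and Abcc4, were examined in the livers and liver tumours of 15 mice. The members were all peaks that overlapped 1 window of the NCBI37/mm9 mouse genome per gene, chr12:82280000-82325000 for Slc10a1, chr2:69060000-69200000 for Abcb11 and chr14:118842420-119154400 for Abcc4. These windows held 146 of the 500869 peaks of all lists, with 20 at Slc10a1, 27 at Abcb11 and 99 at Abcc4. Peaks of the 15 animals that overlapped or touched each other were merged, which gave 16 regions of 56941 in the whole series, 1 at Slc10a1, 6 at Abcb11 and 9 at Abcc4.

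The samples were 5 livers of Mdr2-WT mice (strain label FVB.129P2, 14 to 19 months of age), 5 inflamed livers of Mdr2-KO mice (FVB.129P2-Abcb4tm1Bor/J, 7 to 8 months) and 5 hepatocellular carcinoma (HCC) nodules of Mdr2-KO mice (same strain, 14 to 19 months), each from a different animal and named here by its animal number. All animals of the 3 groups had received clodronate liposomes at 50 µg per g of body weight 48 h before collection, which deplete liver macrophages. The study's text differs from these labels, with FVB/NJ as the WT strain, narrower age ranges and another clodronate load, and the labels are followed here. The knockout removes Mdr2, the phospholipid transporter also called Abcb4, from the whole animal, and bile salts then damage the hepatocytes. Inflamed livers were the youngest group, so that age and the inflamed stage cannot be told apart in either comparison with them, and sexes were mixed without a record for each animal in the labels.

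Hepatocytes take bile acids up from the portal blood and secrete them into bile. NTCP, encoded by Slc10a1, is the main sodium-dependent uptake carrier on the sinusoidal side, and BSEP, encoded by Abcb11, is the pump that exports bile salts across the canalicular membrane. MRP4, encoded by Abcc4, is a sinusoidal efflux pump that returns conjugated bile acids to the blood and is known to increase in cholestasis. H3K27Ac marks promoters and enhancers in an active state, so that a broad or narrow domain of the mark describes how much of a locus carries it.

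The 250 bases before the start of each transporter gene are shown because promoters are a usual site of the mark. They come from RefSeq on GRCm38.p6, minus strand, 5′ to 3′. All 3 genes were matched by symbol, and the start listed farthest 5′ was taken where there were several. Capitals mark an inverted repeat, AGGNCA and TGNCCT with 1 base between them, the class of site that the bile acid receptor FXR binds. FXR is the nuclear receptor that hepatocytes use to sense bile acids, and Abcb11 is its classic target.
Slc10a1, chr12:80968706-80968955: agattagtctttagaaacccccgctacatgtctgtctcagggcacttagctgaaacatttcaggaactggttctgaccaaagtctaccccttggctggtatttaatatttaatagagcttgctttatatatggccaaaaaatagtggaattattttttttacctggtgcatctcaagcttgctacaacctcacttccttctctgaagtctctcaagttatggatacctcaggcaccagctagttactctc
Abcb11, chr2:69342617-69342866: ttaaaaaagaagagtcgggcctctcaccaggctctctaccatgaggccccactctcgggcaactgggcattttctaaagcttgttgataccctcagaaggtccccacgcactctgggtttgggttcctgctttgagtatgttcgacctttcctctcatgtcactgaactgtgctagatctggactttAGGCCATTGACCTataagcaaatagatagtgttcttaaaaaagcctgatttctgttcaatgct
Abcc4, chr14:118706220-118706469: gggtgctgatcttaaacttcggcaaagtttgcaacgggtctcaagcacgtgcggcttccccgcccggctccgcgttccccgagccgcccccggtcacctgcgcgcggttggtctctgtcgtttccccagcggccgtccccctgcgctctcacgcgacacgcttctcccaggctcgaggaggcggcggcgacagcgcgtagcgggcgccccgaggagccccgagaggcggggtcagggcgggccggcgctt

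The 3 sequences differed in composition. Abcc4 had 72% G and C and 35 CpG, Abcb11 46.4% and 4 CpG, and Slc10a1 40.8% and 1 CpG, against medians of 52% and 6 CpG over 27025 genes. Abcb11 alone of the 3 held the inverted repeat, from base -63 to base -51 before the start, a form found in 24 of the 27025 sequences (0.0888%). Its second arm is the half-site AGGTCA read on the other strand, which 13.8% of all promoters held on either strand. None of the 3 held 2 copies of AGGTCA in the same direction with 4 bases between (0.0111% of all promoters). Both strands were searched, the letters allowed at each place were chosen after the Abcb11 sequence was read, and a match is a description of letters only. These positions are on another build than the peaks, and where the gene starts lie relative to the peaks was not determined.

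**Figure D1:**
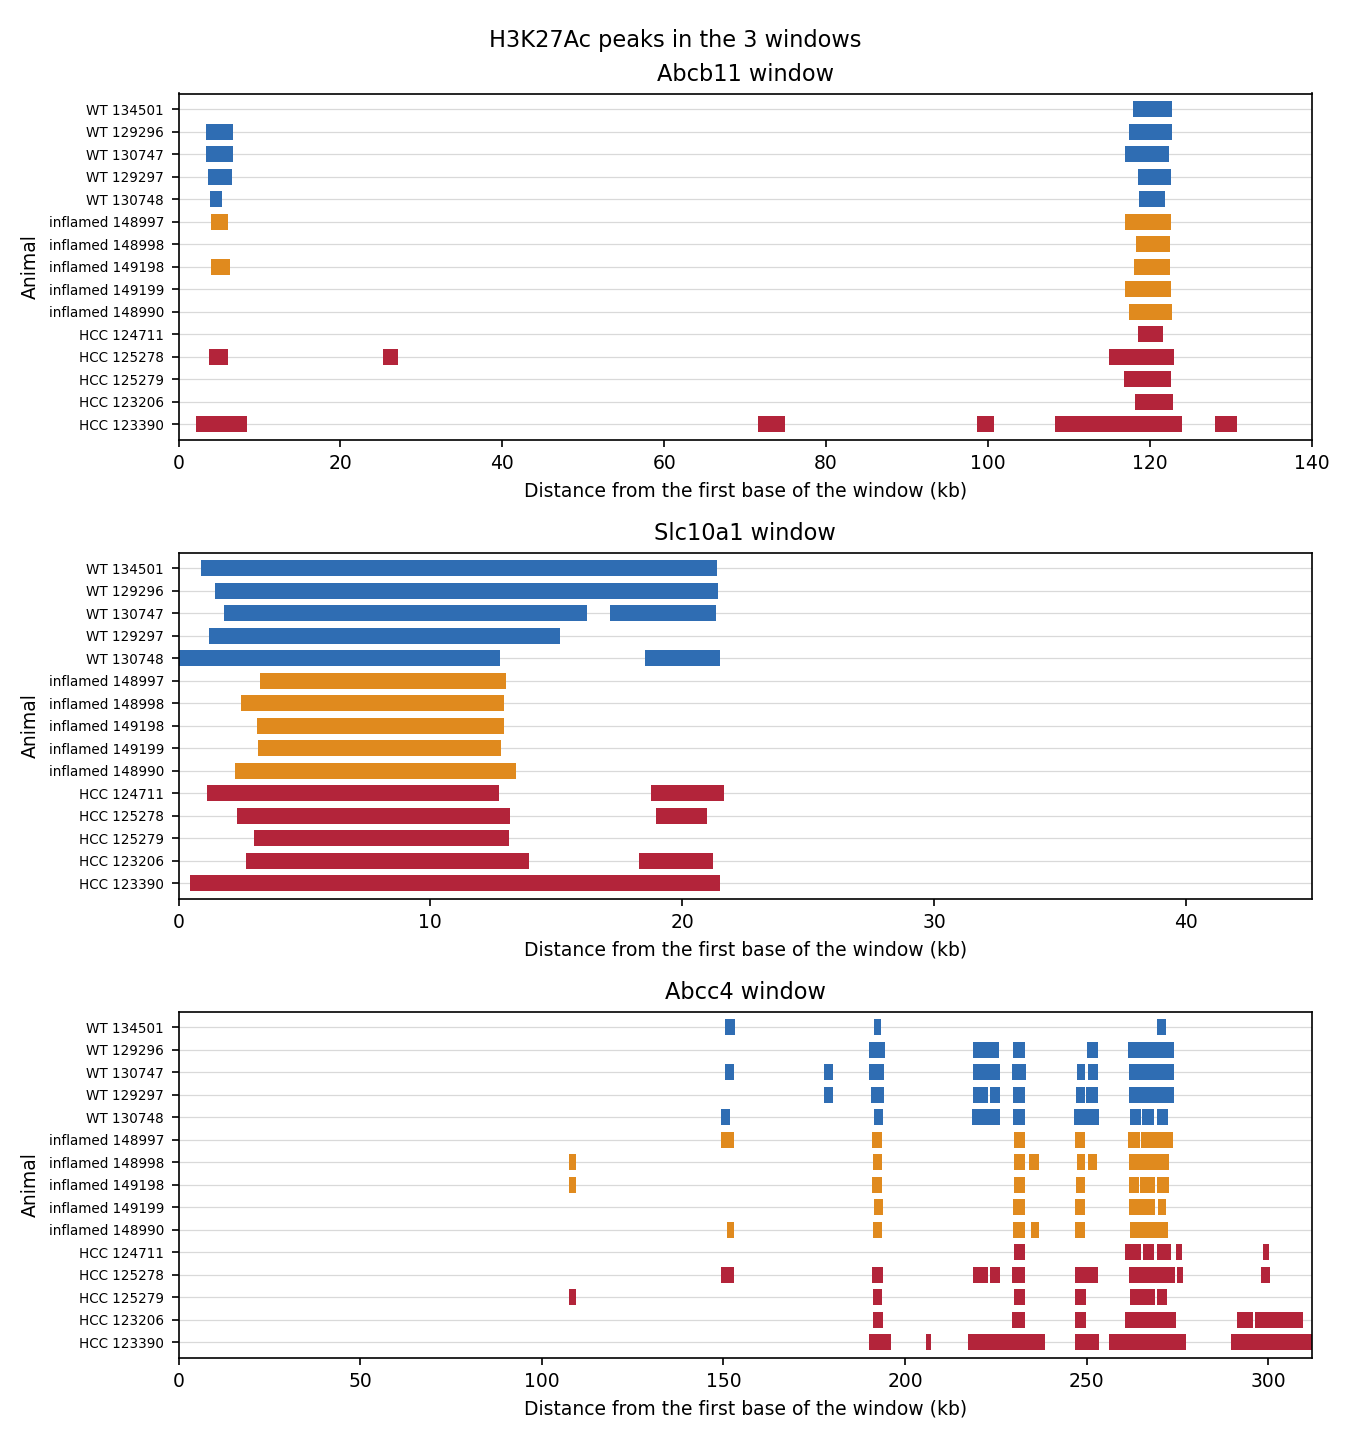
H3K27Ac peaks of each of the 15 animals in the Abcb11, Slc10a1 and Abcc4 windows, drawn as bars along the distance from the first base of the window (kb), with WT in blue, inflamed in orange and HCC in red. At Slc10a1 the 5 inflamed livers had 1 peak each, over the shared core, while 4 of 5 WT livers and 4 of 5 HCC nodules also had the upper end of the region under a peak.

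Each of the 3 windows held 1 region with a peak in all 15 animals, so 3 of the 16 regions did, against 21.3% of all regions of the series. Regions with a peak in a single animal numbered 4 at Abcb11, 0 at Slc10a1 and 1 at Abcc4, and made up 22.9% of the series. A region was called gained or lost where all 5 animals of one group and none of the other had a peak. By that rule 0 of the 16 regions changed from WT to inflamed livers, where 6.65% of the 44697 regions with a peak in either group did. HCC nodules against inflamed livers gave 0 of 16 (1.44% of 54675 such regions), and HCC nodules against WT livers also gave 0 of 16 (0.398% of 52284). The shares leave out regions with no peak in the groups compared, while some of the 16 had no peak in WT or inflamed livers. These comparisons share their groups and are given side by side.

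The length under peaks, in base pairs (bp), was compared region by region. In 0 of 16 regions did every inflamed liver have more bp than every WT liver, and in 1 of 16, that of Slc10a1, did every inflamed liver have fewer. Of the regions with a peak in either group, 12% and 3.92% did so, while some of the 16 had no peak in either group and could not. The groups overlapped in all 16 regions between HCC nodules and inflamed livers, and between HCC nodules and WT livers. Of the regions with a peak in the groups compared, 4.66% and 1.77% did not overlap in either direction.

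Peak lists differed between groups as a whole. WT lists held 26390 to 30268 peaks, inflamed lists 35901 to 40909 and HCC lists 26696 to 42736, and the median peak width was 2890 to 3809 bp, 2791 to 3197 bp and 2689 to 3972 bp in that order. The lists give no reads per peak and the depth is unknown, so a shorter peak and a shallower library cannot be told apart. WT liver 130748 and HCC nodule 124711 stood apart by the largest shares of peaks at the tied score of 3100 (23.5% and 24.5%) and by the least total length under peaks of their groups (109 and 92.5 Mb). HCC nodule 123390 had the widest peaks (median 3972 bp).

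The Slc10a1 locus had less H3K27Ac-covered sequence in inflamed livers than in WT livers. In WT livers peaks covered 20510 bp of the window in animal 134501, 19990 in 129296, 18609 in 130747, 13913 in 129297 and 15709 in 130748. In inflamed livers they covered 9788 bp in animal 148997, 10453 in 148998, 9803 in 149198, 9650 in 149199 and 11157 in 148990. The groups did not overlap, and the inflamed livers lay close to each other. The means were 17746 ± 2840 bp in WT livers (39.4% of the window) and 10170 ± 633 bp in inflamed livers (22.6%; SD, n = 5 each), a difference of -7576 bp or -42.7%.

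This difference passed the test (two-sided exact permutation test, p = 0.00794, adjusted p = 0.0393 over 23939 windows of the same length across the genome). That is the smallest p which 5 against 5 animals can give, and 20.2% of those windows passed in either direction. Inflamed livers were lower than WT livers without overlap in 4.43% of the windows. Over their whole lists the inflamed livers had 137.7 to 159.9 Mb under peaks and the WT livers 109 to 148 Mb. Inflamed lists held more peaks, and their median peak widths had a mean of 2999 bp, against 3376 bp in WT lists. The Slc10a1 difference was -68.8 bp per Mb of list and -7576 bp with equal lists of the best peaks (exact permutation tests, adjusted p = 0.0328 and 0.0488). The part of the list-wide differences in it was not tested beyond this, and that of peak width not at all. Leaving out any 1 animal kept the groups apart but ended the call (exact permutation tests, adjusted p = 0.0504 to 0.0753), as did taking only the top 50% of each list by score (exact permutation test, adjusted p = 0.0536). In each of these runs p at Slc10a1 was the smallest possible, so no window of the genome could pass. The loss of the call therefore does not show a dependence on single animals. In the merged region the difference was -7627 bp (exact permutation test, adjusted p = 0.0498 over all regions).

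HCC nodules covered 14507 bp in animal 124711, 12909 in 125278, 10136 in 125279, 14150 in 123206 and 21060 in 123390 at Slc10a1. Nodule 125279 lay within the range of the inflamed livers, nodule 123390 lay above every WT liver, and the other 3 lay between or within the lower WT values. The mean of 14552 ± 4022 bp (SD, n = 5, 32.3% of the window) was 4382 bp above that of inflamed livers. This did not pass after adjustment over all windows (exact permutation test, p = 0.0238, adjusted p = 0.242), and 0% of windows of this length passed in that comparison. The difference was 2755 bp without nodule 123390, and 5486 bp without nodule 125279, where the groups did not overlap (exact permutation tests, adjusted p = 0.378 and 0.134). Against WT livers the nodules differed by -3194 bp (exact permutation test, p = 0.198, adjusted p = 0.732, 0% of windows passed). This was -4821 bp without nodule 123390, -2090 bp without nodule 125279 and -9647 bp with 10000 bp added on each side of the window (exact permutation tests, adjusted p = 0.522, 0.940 and 0.389). The wider window took in part of a separate region below it, described at the end. The bp added on the lower side were 5789 to 7978 in WT livers and 0 to 1271 in HCC nodules.

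**Figure D2:**
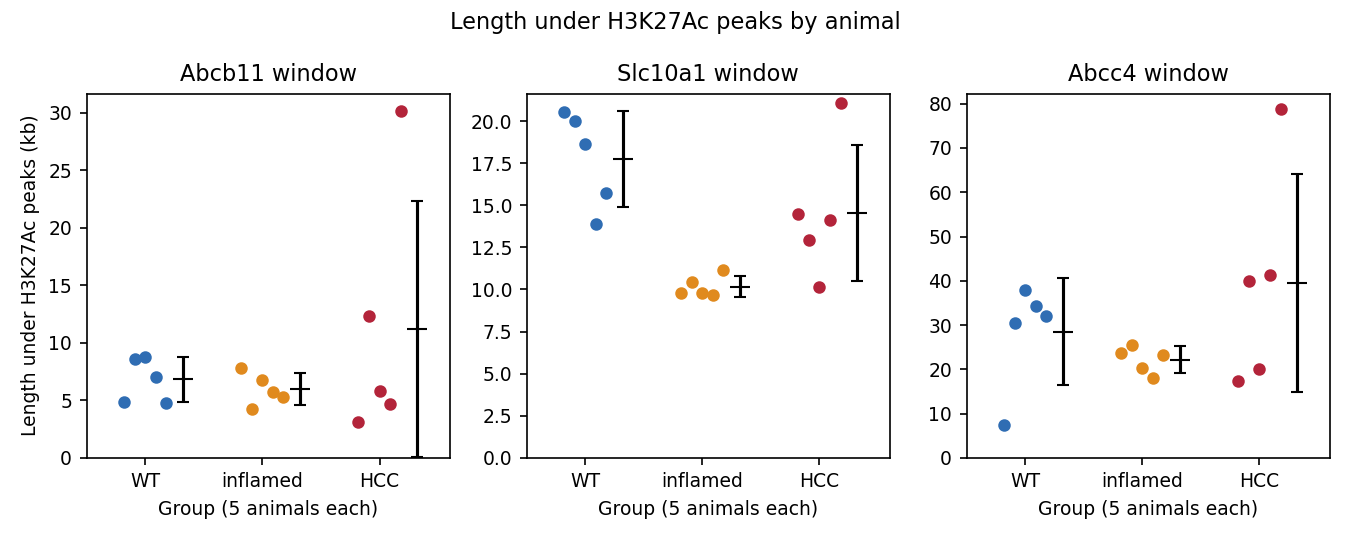
Length under H3K27Ac peaks (kb) in the Abcb11, Slc10a1 and Abcc4 windows, 1 point per animal, with the mean and SD of each group of 5 beside the points. At Slc10a1 the inflamed livers lie below all WT livers (means 10170 and 17746 bp), while at Abcb11 and Abcc4 the groups overlap.

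Along the Slc10a1 region, chr12:82279746-82301654 (21909 bp), the animals shared a core and differed at both edges. All 15 animals covered the 9503 bp from 82283223 to 82292725. Every inflamed peak ended between 82292800 and 82293408. Of the WT livers, 4 of 5 had peaks that reached 82301327 or beyond, and that of animal 129297 ended at 82295132.

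The WT edges that inflamed livers lacked fell into 3 stretches. On the lower side, 447 bp from 82281805 to 82282251 were covered in all 5 WT livers, in 0 of 5 inflamed livers and in HCC nodules 124711 and 123390. At least 4 WT livers and 0 inflamed livers covered 812 bp there, from 82281440 to 82282251. On the upper side, 1724 bp from 82293409 to 82295132 were covered in at least 4 WT livers, 0 inflamed livers and 1 or 2 HCC nodules. Farther up, 2808 bp from 82298520 to 82301327 were covered in at least 4 WT livers, 0 inflamed livers and 2 to 4 HCC nodules.

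Of the 3 stretches, this last one had a peak in the most HCC nodules. At 2054 bp from 82298951 to 82301004, 4 of 5 HCC nodules had a peak and 0 of 5 inflamed livers did, the exception among the nodules being 125279. In nodules 124711, 125278 and 123206 it was a separate peak of 2907, 2054 and 2932 bp. In nodule 123390 it was the end of 1 peak of 21060 bp. The separate peaks stood at percentiles 53.7, 5.52 and 19.9 of their own lists by score, so that 1 of the 3 was among the weakest peaks of its library. These stretches were picked after the peaks were seen and carry no test.

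The core itself was strong in almost all animals. The best peak of the region had the tied score of 3100 in 14 of 15 animals, and in nodule 124711 it stood at percentile 62.8 of the list. This includes all 10 WT and inflamed livers, so that the score could not show a difference in the height of the core between them. In bulk tissue, fewer cells with the mark and less of the mark per cell cannot be told apart.

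**Figure D3:**
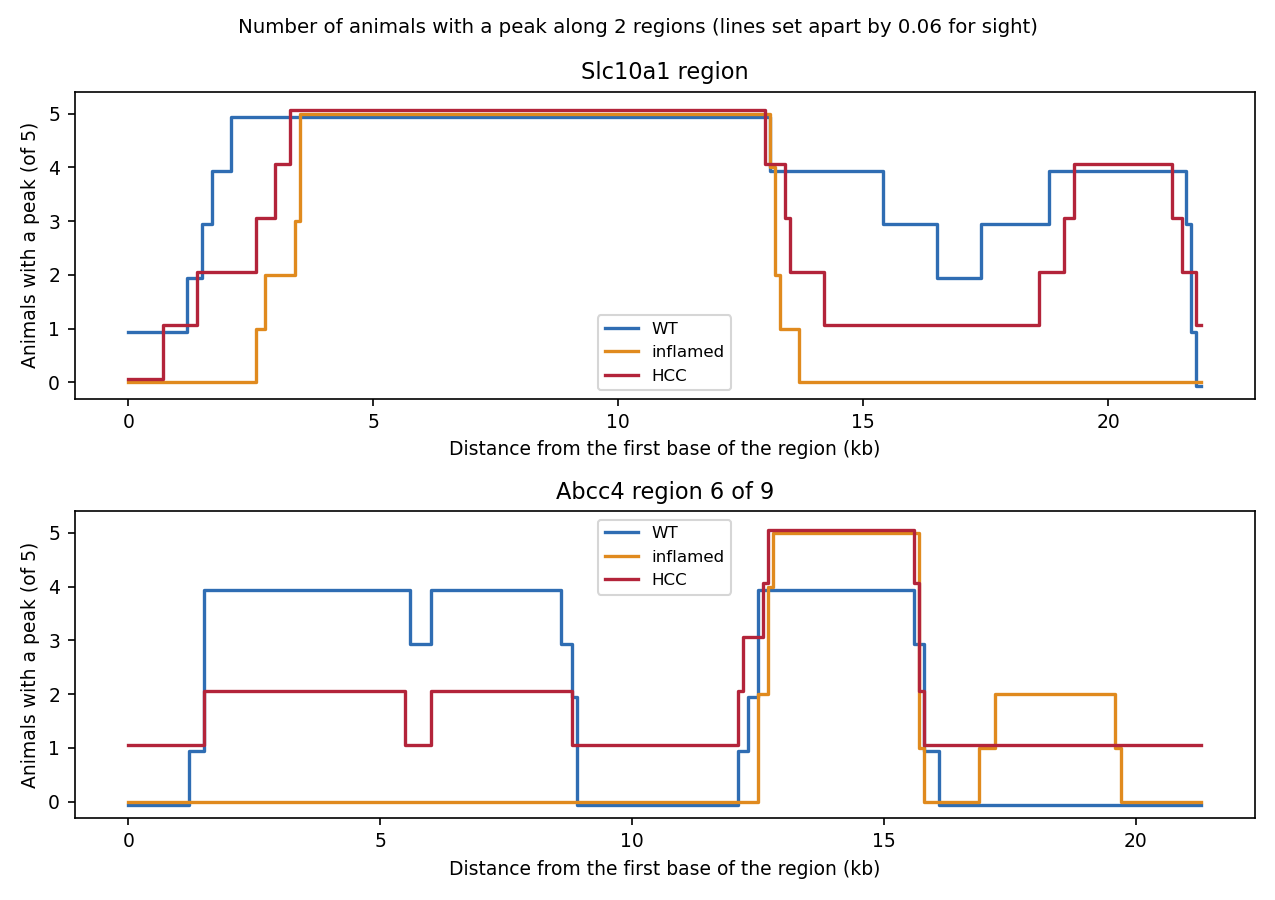
Number of animals of each group (of 5) with a peak at each position along the Slc10a1 region and along the sixth region of the Abcc4 window, against the distance from the first base of the region (kb). At Slc10a1 all groups reach 5 animals over the shared core, inflamed livers (orange) fall to 0 beyond it, and 4 WT livers and 4 HCC nodules have a peak again near 20 kb.

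The size of the change was set beside the 12112 regions with a peak in all 15 animals. For Slc10a1 the log2 ratio of the mean length in inflamed to that in WT livers was -0.81, against a median of -0.07 over these regions, and 2.34% of them were at or below it. Among them 8.3% had fewer bp in every inflamed liver than in every WT liver. The shared regions of Abcb11 and Abcc4 had log2 ratios of 0.16 and 0.10, on the other side of the median. In that of Abcc4, WT liver 134501 had 2417 bp and the other WT livers 9268 to 12570 bp. Inflamed livers had 9389 to 11911 bp there. The low value raises the Abcc4 ratio, and the place of Abcc4 above the median rests on that animal. From inflamed livers to HCC nodules the 3 regions had log2 ratios of 0.52 (Slc10a1), 0.54 (Abcb11) and 0.45 (Abcc4), against a median of 0.06. Without nodule 123390, the library with the widest peaks, they were 0.35, 0.08 and 0.27, against a median of -0.0036, an alternative added after the data were seen. None of these HCC differences passed (exact permutation tests, adjusted p = 0.331, 0.941 and 0.417 over all regions).

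**Figure D4:**
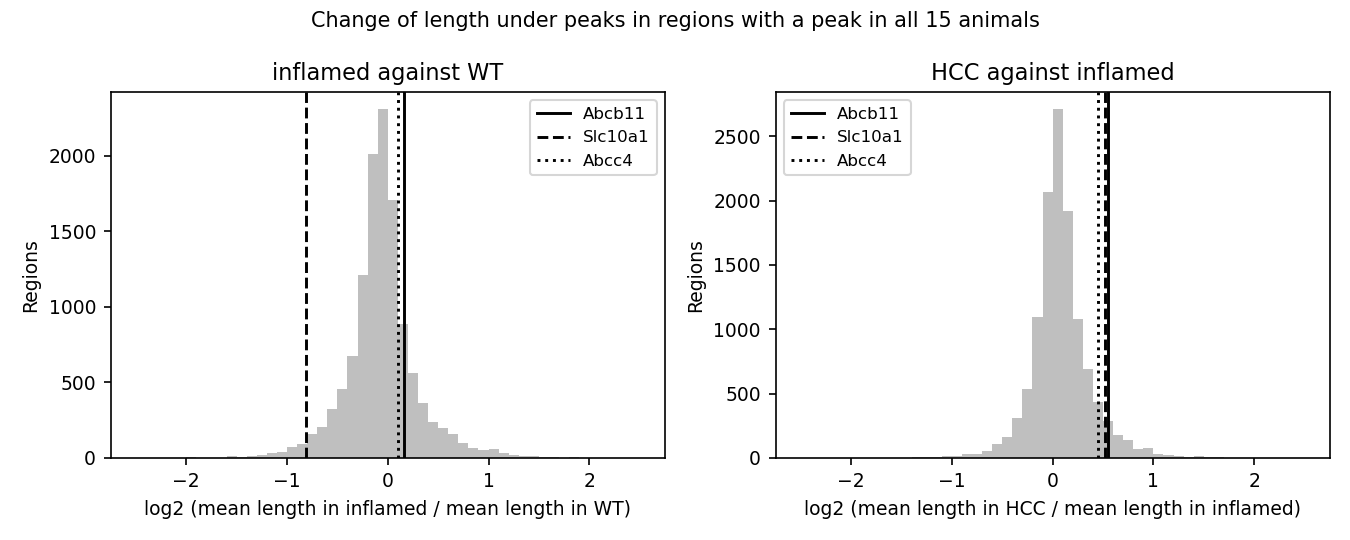
Histograms of the log2 ratio of mean length under peaks over the 12112 regions with a peak in all 15 animals, inflamed against WT at left and HCC against inflamed at right, with lines at the shared regions of Abcb11, Slc10a1 and Abcc4. At left the Slc10a1 line is at -0.81, in the lower tail, and at right, with all 5 nodules, the 3 lines lie between 0.45 and 0.54 (0.08 to 0.35 without nodule 123390).

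At Abcb11, the canalicular export pump, no comparison passed. Peaks covered 4866, 8632, 8746, 7067 and 4773 bp in WT livers 134501, 129296, 130747, 129297 and 130748. They covered 7830, 4281, 6786, 5690 and 5320 bp in inflamed livers 148997, 148998, 149198, 149199 and 148990. The inflamed livers spanned nearly the same range as the WT livers. HCC nodules 124711, 125278, 125279, 123206 and 123390 had 3082, 12291, 5815, 4665 and 30164 bp, so that 1 nodule was far above the rest and another was the lowest of all 15 animals.

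The WT mean was 6817 ± 1941 bp, the inflamed mean 5981 ± 1367 bp and the HCC mean 11203 ± 11163 bp (SD, n = 5 each). Inflamed livers differed from WT livers by -835 bp (exact permutation test, p = 0.444, adjusted p = 0.603, with 22.9% of windows of this length passing). HCC nodules differed from inflamed livers by 5222 bp (exact permutation test, p = 0.405, adjusted p = 0.805, 0% of windows passing). They differed from WT livers by 4387 bp (exact permutation test, p = 0.563, adjusted p = 0.928, 0% passing). Both HCC differences rested on nodule 123390. Without it they were 482 bp and -354 bp. Without WT liver 130748 and nodule 124711 the difference of nodules from WT livers was 5906 bp.

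The Abcb11 window was sparse, with 1 to 5 peaks per animal. Its shared region, chr2:69168335-69183961, had 1 peak in each of the 15 animals, and all of them covered the 2998 bp from 69178642 to 69181639. The peak spanned 3260 to 5414 bp among the WT livers, 4281 to 5727 bp among the inflamed ones and 3082 to 15627 bp among the nodules. It had the tied score of 3100 in 13 animals. WT liver 130748 and HCC nodule 124711, the libraries that stood apart, had its narrowest forms (3260 and 3082 bp), at percentiles 49.8 and 40.7 of their lists.

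The only other Abcb11 region found in more than 1 animal was the first of the window, described here after its values were seen. The WT animals with a peak were 4 of 5, against 2 of 5 inflamed and 2 of 5 HCC animals (inflamed against WT, exact permutation test on its length, p = 0.143, adjusted p = 0.357 over all regions). The WT peaks stood between percentiles 46.7 and 51.5 of their lists and the inflamed peaks at percentiles 9.01 and 13, in lists of unequal length, and neither was tested. Those of nodules 125278 and 123390 were at percentiles 28.1 and 61. The remaining 4 regions each had a peak in 1 HCC nodule, 1 of them in 125278 and 3 in 123390, the nodule with the widest peaks over its whole list. The part of that width in these regions was not tested.

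At Abcc4, the sinusoidal efflux pump, peaks were spread over 9 regions and no comparison that was tested passed. WT livers 134501, 129296, 130747, 129297 and 130748 had 7383, 30528, 37999, 34371 and 32139 bp under peaks. Inflamed livers 148997, 148998, 149198, 149199 and 148990 had 23707, 25530, 20340, 18057 and 23298 bp. All 5 inflamed livers lay below 4 of the WT livers and above WT liver 134501, which was far below the other 4. HCC nodules 124711, 125278, 125279, 123206 and 123390 had 17374, 40027, 20051, 41249 and 78741 bp, with 3 nodules above every WT liver and 2 near or below the lowest inflamed values.

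Inflamed livers differed from WT livers by -6298 bp (exact permutation test, p = 0.310, adjusted p = 0.463, with 24.9% of windows of this length passing). Without WT liver 134501 the difference was -11573 bp, the groups did not overlap, and the test still did not pass (exact permutation test, p = 0.0159, the smallest possible with 4 against 5, adjusted p = 0.0577). No window of this length could pass in that run. The window had been extended to take in its last region, which only HCC nodules had, so the nodules were tested on the window that ends before it. There they differed from inflamed livers by 8513 bp (exact permutation test, p = 0.373, adjusted p = 0.800) and from WT livers by 2216 bp (exact permutation test, p = 0.841, adjusted p = 1). In windows of the full length 0% passed in either HCC comparison. Over the full window the differences, given without a test, were 17302 and 11004 bp, and without nodule 123390 they were 7489 and 1191 bp. Without WT liver 130748 and nodule 124711 the full-window difference from WT livers was 17447 bp.

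**Figure D5:**
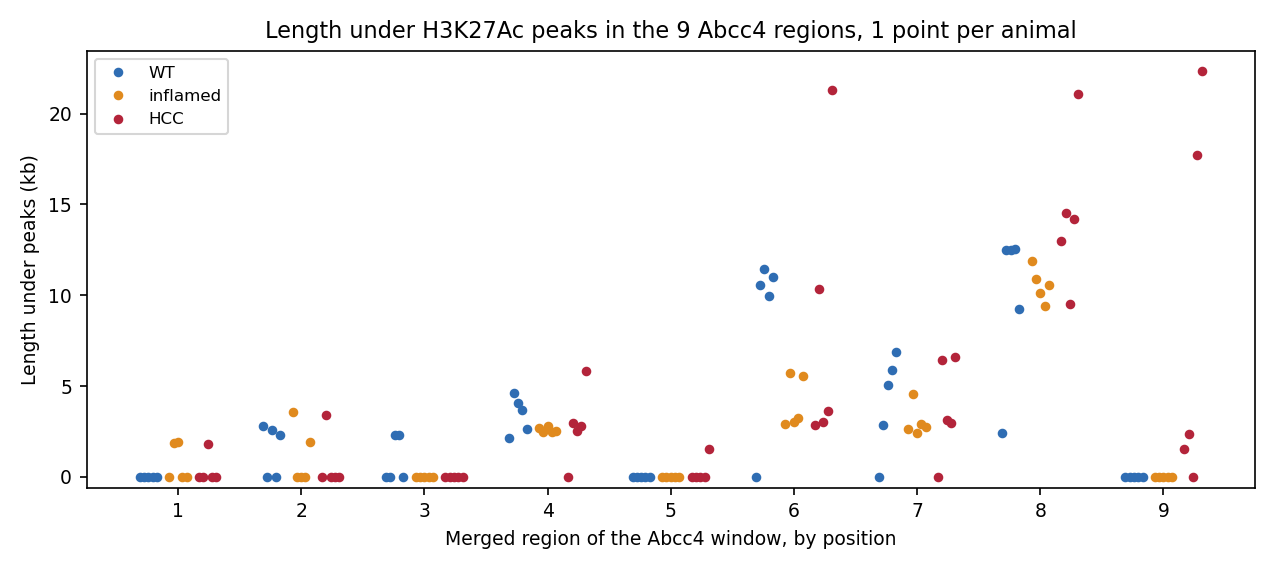
Length under H3K27Ac peaks (kb) in each of the 9 merged regions of the Abcc4 window in order of position, 1 point per animal and 3 columns of points per region for WT, inflamed and HCC. Region 8 has a peak in all 15 animals, region 6 has 4 WT livers near 10 kb or above it with the inflamed livers below them, and region 9 has points above 0 in 4 HCC nodules only.

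The Abcc4 region shared by all 15 animals was the eighth, chr14:119098554-119119650, with 2291 bp from 119111986 to 119114276 covered in every animal. Coverage of it ran from 2417 to 12570 bp among WT livers, from 9389 to 11911 bp among inflamed ones and from 9494 to 21097 bp among nodules. The mean in nodules, 14453 ± 4213 bp, was 3873 bp above that in inflamed livers, 10580 ± 933 bp (SD, n = 5 each). This difference did not pass (exact permutation test, p = 0.0556, adjusted p = 0.417 over all regions), and 0 regions of the series did in that comparison. Its best peak had the tied score of 3100 in WT liver 130748 and in 4 of 5 nodules, while its highest rank in an inflamed liver was percentile 80.4. Inflamed livers had a mean 735 bp above that of WT livers here (exact permutation test, p = 0.889). WT liver 134501 had 2417 bp, and the other WT livers had 9268 to 12570 bp.

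The sixth and seventh regions, beside it, are described after their values were seen. Their mean lengths were lower in inflamed than in WT livers, and neither difference passed. In the sixth region, WT livers other than 134501 had 9957 to 11466 bp, WT liver 134501 had 0, and inflamed livers had 2921 to 5707 bp (exact permutation test, p = 0.0714, adjusted p = 0.214 over all regions). HCC nodules had 2872, 10337, 3027, 3623 and 21303 bp in the order above, so that 3 nodules were near the inflamed livers and 2 were within or above the range of those 4 WT livers. The animals shared the upper part of this region, where all 5 inflamed livers, all 5 nodules and 4 WT livers had a peak. The lower part, from 119061270 to 119065322 (4053 bp) and from 119065762 to 119068343 (2582 bp), was under a peak in at least 4 WT livers, with 0 inflamed livers and 1 to 2 nodules.

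The seventh Abcc4 region had a similar edge in part of the animals. Its mean length was 3058 bp in inflamed and 4134 bp in WT livers, which did not pass (exact permutation test, p = 0.437, adjusted p = 0.680 over all regions). In 4 WT livers its peaks reached 119095523 or beyond. In 4 of 5 inflamed livers they ended between 119091890 and 119092093, and in inflamed liver 148998 at 119095152. Nodules 125278 and 123390 reached 119095594 and 119095772, nodules 125279 and 123206 ended at 119092329 and 119092149, and nodule 124711 and WT liver 134501 had no peak there. Nodules 125278 and 123390 were thus the 2 that covered the lower part of the sixth region as well.

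A peak in the fourth region, also chosen with its values in view, was found in 14 of 15 animals, all but nodule 124711. Its length under peaks was 2164 to 4608 bp for WT, 2477 to 2806 bp for inflamed and 0 to 5849 bp for HCC. The other 4 regions had a peak in 1 to 6 animals, and in 0 of these 4 were there more than 3 animals of a group.

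The last Abcc4 region, chr14:119132034-119154376, was seen in HCC nodules only. Because the window was extended for it, its values are given without a test. Nodules 124711, 125278, 123206 and 123390 had 1527, 2374, 17699 and 22343 bp there, nodule 125279 had none, and all 10 WT and inflamed livers had none. Its best peak stood at percentiles 3.42 and 22.9 of the list in nodules 124711 and 125278, at percentile 73.5 in 123206, and at the tied score of 3100 in 123390.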

How the data were processed

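The authors aligned H3K27Ac ChIP-seq reads to mm9 and called peaks in each animal separately (Bowtie 0.12.7 and MACS 1.4 per the submitters' notes). The deposited files list each peak's position with the peak caller's score, from 50 to 3233 and often tied at 3100, without read counts. An IgG control was not analysed here. The study set 2 unnamed samples aside in one analysis, and all 15 were kept here.

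Peaks on chromosomes 1 to 19 and X were merged where they overlapped or adjoined (Python 3.11.15, NumPy 2.4.6). Lengths under peaks were compared by two-sided exact permutation tests, checked on simulated data, with Benjamini-Hochberg adjustment over all windows of equal length, or all regions, with a peak in the compared groups, at 0.05. Score percentiles rank a peak within its own list.

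The members and tests were chosen with earlier results of these data known. The study had shown Abcc4 in representative samples, with acetylation and RNA both raised in tumours. RNA was not examined here. Regions were named if shared by the most animals of a window, called, present in at least 4 of 5 animals of a group and at most 1 of 5 of another, or without overlap. The first Abcb11 region and the fourth, sixth and seventh Abcc4 regions fall outside that rule and were chosen after their values were seen. No mm9 annotation was used, so liver markers and the other bile acid genes were not placed. On GRCm38.p6 the neighbours are Srsf5 and Smoc1 (Slc10a1), G6pc2 and Dhrs9 (Abcb11), and Gm9376 and Cldn10 (Abcc4). Alternatives were the top 50% of each list, equal lists of the 26375 best peaks, peak counts, length per Mb of list, windows extended by 10000 bp, other region rules, and leaving out animals.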

Additional observations from a re-analysis of the deposited data

Results flagged for a closer look

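Sets of 5 animals were screened for 1 that lies apart, with a gap to its nearest neighbour above 0.71 of the whole range, and 3 of 27 sets had such an animal. By chance about 1 in 20 would if the sets were independent. These sets overlap, since regions lie within the windows, so that rate cannot be set against the count.

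WT liver 134501 had 7383 bp under peaks in the Abcc4 window, the lowest of its group by 0.756 of the range. In the sixth Abcc4 region the same animal had 0 bp, the lowest by 0.868 of the range. Its list was not short of covered length as a whole (128 Mb, the median of the WT lists). At Slc10a1 it had the most covered bp of the WT livers, 20510.

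Inflamed liver 148998 had 4563 bp in the seventh Abcc4 region, the highest of its group by 0.763 of the range.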

How the results depend on the processing

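Of the values under an alternative for results that answer a comparison, 168 kept direction and side of the threshold, 12 lost the threshold, 3 turned sign and 4 were counts that moved. All 12 losses were of Slc10a1 in inflamed against WT livers, the only result that had passed. The 168 include differences that had never passed and counts of regions that stayed at 0. For Slc10a1, inflamed against WT livers, the difference kept its direction in every alternative run. By exact permutation tests it was no longer past the threshold with the top 50% of each list (-6737 bp, adjusted p = 0.0536) or as a number of peaks (-0.4, adjusted p = 0.835). By the same exact tests it was -7576 bp with equal lists (adjusted p = 0.0488) and -68.8 bp per Mb of list (adjusted p = 0.0328), and grew to -13795 bp with 10000 bp added on each side (adjusted p = 0.0368). Leaving out any 1 animal gave -8534 to -6885 bp with no overlap of the groups, and exact permutation tests with adjusted p-values from 0.0504 to 0.0753. With 4 against 5 animals the smallest possible p is 0.0159. Slc10a1 had that p in each of these runs, so no window of the genome could pass in them. Slc10a1 in HCC nodules against WT livers turned to 0.2 more peaks when peaks were counted, as did Abcc4 in inflamed against WT livers (0.2 more). Abcb11 in inflamed against WT livers, which passed in no alternative, was -1716 bp with equal lists, -160.4 bp with the top 50%, and -1346 to -353 bp when leaving out 1 animal. Leaving out 1 animal gave -354 to 6417 bp for Abcb11 in HCC nodules against WT livers, and the sign turned without nodule 123390. Where at least 4 of 5 against at most 1 of 5 animals sufficed, the count of regions in HCC nodules against inflamed and against WT livers was 1, the last of Abcc4, and when leaving out 1 animal it was 0 to 1, with 1 only without nodule 125279. The window was extended for that region, so these counts follow from the choice of window. No paired analysis was possible because the groups share no animal numbers. The files hold no reads, so a peak missed for lack of depth cannot be told from one that is absent.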

Other observations

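The values below were found when the Slc10a1 window was extended and lie outside the 3 windows. The next merged region below it, chr12:82265601-82278159, had more H3K27Ac-covered length in WT livers than in both Mdr2-KO groups. WT livers 134501, 129296, 130747, 129297 and 130748 had 9667, 12254, 10621, 9174 and 11811 bp there. Inflamed livers 148997, 148998, 149198, 149199 and 148990 had 3192, 3548, 3213, 3079 and 3436 bp. HCC nodules 124711, 125278, 125279, 123206 and 123390 had 3748, 3350, 2552, 0 and 4085 bp. Every WT liver was above every other animal, and the 2 Mdr2-KO groups overlapped. Of the regions with a peak in the groups compared, 3.92% had fewer bp without overlap in inflamed than in WT livers. For HCC nodules against WT livers it was 1.02%. The difference from WT livers was -7412 bp in inflamed livers (exact permutation test, p = 0.00794, adjusted p = 0.0498 over all regions). In HCC nodules it was -7958 bp and did not pass (exact permutation test, p = 0.00794, adjusted p = 0.448), and 0 regions of the series passed there. Within it, the 4495 bp from 82273073 to 82277567 were under a peak in all 5 WT livers and in 0 of the 10 other animals. HCC nodules and inflamed livers differed by -547 bp (exact permutation test, p = 0.675). Which gene this region belongs to was not determined, and it was chosen after its values were seen.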
